A study of Mus musculus with 8 samples.

Results

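How strongly wild type (WT) and miR-155 knockout (KO) dendritic cells (DC) responded to lipopolysaccharide (LPS), relative to each other, was measured for 14300 of the 27398 gene names on the array, in all 8 arrays of the series. For each gene the change from the unstimulated state to LPS in WT was subtracted from the same change in KO, so that a positive value means a more positive response in KO. Members were the genes with a probe that was well above background in 1 or more of the WT groups and in 1 or more of the KO groups, each time on both of its arrays, with the brightest such probe standing for the gene. A response could therefore be measured in both genotypes. Of the 14300 genes, 14299 could be tested (Mchr1 had too few values left), and 12327 were well above background on all 8 arrays. The cells came from bone marrow of male C57BL/6Jax mice, either WT or lacking miR-155, and were grown for 7 days with 40 ng/mL GM-CSF, the growth factor that drives marrow cells into DC. The groups were WT unstimulated, KO unstimulated, WT LPS and KO LPS, the last pair after 16 h with 100 ng/mL LPS, and each had 2 arrays. Cells sorted without LPS lacked the activation marker CD86, and those sorted after LPS carried it, so each response also compares both sort gates. The labels leave unsaid if replicates are separate mice or cultures, so the p-values measure the spread between these arrays, which may be technical.

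LPS, a cell wall component of Gram-negative bacteria, is sensed by the receptor TLR4. The receptor signals through NF-kB to cytokine genes and through the adaptor TRIF to interferon beta, which in turn acts back on the cells and switches on interferon-stimulated genes. miR-155 is a microRNA that is itself induced in DC and macrophages by such signals, and it lowers the transcripts whose 3' ends pair with its seed. The mature strand is printed because it defines the genotype, and its sequence is that of RefSeq, on chromosome 16 (GRCm38.p6, chr16:84714143-84714165, plus strand), and capitals mark the seed, bases 2 to 8.
mmu-miR-155-5p: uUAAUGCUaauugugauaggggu
The array held 0 probes named for Mir155 or its host transcript, so the deletion itself was not measured here.

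On each array 50.8% to 58.3% of the spots other than controls were well above background, and having only 2 arrays in a group limits the precision. The scaled log2 signal used throughout is the log2 processed signal minus the 75th percentile of the array, and 0 therefore marks a spot at that percentile. Over the tested genes, 78.6% of the variance fell on a first principal component that parted LPS from unstimulated arrays, and 9.25% on a second that parted replicate number 1 from number 2. The DC markers Itgax, Cd74 and H2-Ab1 were bright on all 8 arrays, with Cd74 between 8.25 and 8.90. The summed level of 14 DC markers, as a mean per array, was 2.26 to 2.27 in WT and 2.30 to 2.50 in KO without LPS, and 2.81 to 2.89 and 2.99 to 3.07 after it.

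The LPS response was large, and across genes it followed the same pattern in both genotypes. Averaged over the genotypes, 2699 genes rose (18.9% of the 14299) and 2775 fell (19.4%), 5474 in all (38.3%; limma, adjusted p under 0.05). Across genes, which are not independent replicates, the response of KO followed that of WT with r = 0.968 and a rank correlation of 0.941, over arrays that the responses do not share. The spread of the responses over genes was 1.55 in WT and 1.62 in KO (SD of the log2 response), a ratio of 1.05. These values describe the whole transcriptome, and the comparison of single genes follows.

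**Figure D1:**
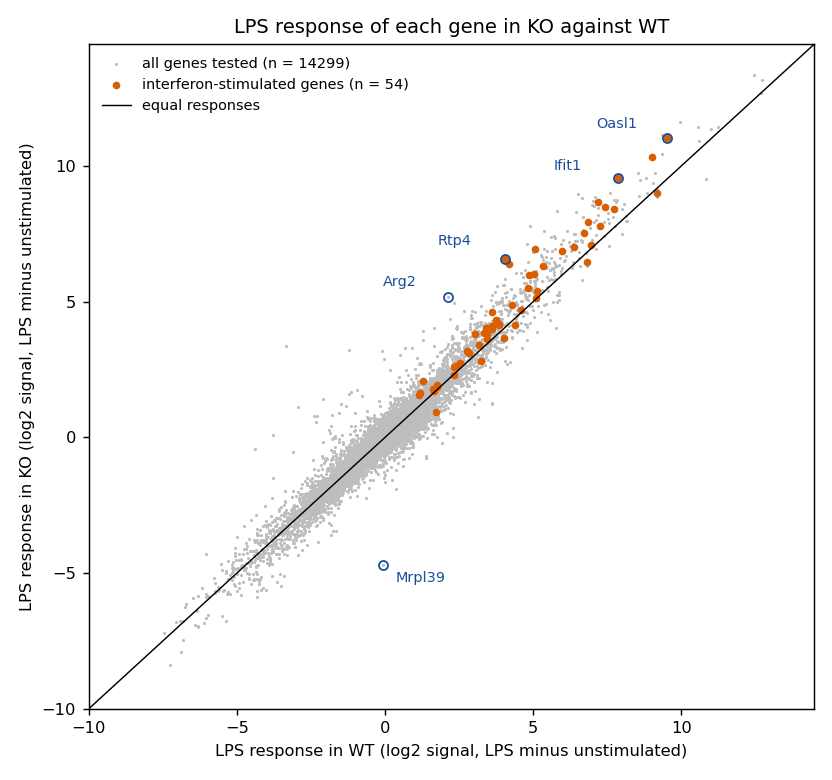
Each grey point is 1 of the 14299 genes and each orange point 1 of 54 interferon-stimulated genes, with the log2 response to LPS in WT on the x axis and in KO on the y axis, both from 2 arrays per group. The points lie along the line of equal responses (r = 0.968), with Mrpl39 far below it (WT -0.05, KO -4.71).

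No gene passed the test for a different response. limma called 0 of 14299 genes (0%) at an adjusted p under 0.05 and 0 at under 0.1, while 99 genes had an unadjusted p under 0.05. Of these, 84 had a more positive response in KO (0.587% of the genes) and 15 a more negative one (0.105%). The smallest adjusted p was 0.235, for the mitochondrial ribosomal protein gene Mrpl39, and the next was 0.928, for the interferon-induced gene Rtp4. All 4 differences between a KO LPS array and a KO unstimulated array lay above all 4 such differences of WT for 400 genes (2.8%), and below them for 176 genes (1.23%). The median difference was 0.05, with quartiles of -0.14 and 0.23, and 57.2% of the genes were above 0. A log2 difference of at least 1 in size was fitted for 406 genes (2.84%), 269 positive and 137 negative. Among genes well above background on all 8 arrays there were 130 such genes, 102 positive and 28 negative.

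The precision sets what these numbers can show. The median standard error of a gene's difference was 0.49, and the median 95% interval reached 1.16 to either side. Only 1751 genes (12.2%) had an interval that lay wholly between -1 and 1, so for the remaining genes the interval allowed a difference of 2-fold or more in at least 1 direction. Slide and replicate number enter the difference with equal weight in both directions, so neither shifts its estimate as an additive effect, but the difference could not be computed within a single slide, because no slide held all 4 groups.

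Genes that rose with LPS had, as a group, a slightly more positive response in KO. Of the 2699 risen genes 1676 (62.1%) had the larger response in KO, with a median difference of 0.10, against 57.2% and 0.04 among the 8825 genes without a call. Of the 2775 fallen genes 1320 (47.6%) fell by more in KO, with a median difference of 0.02. The share among the risen genes dropped to 54.4% when arrays were scaled to their median and to 47.5% with normexp background correction and the 75th percentile, and the latter turned the median to -0.059. Over all 14299 genes the number above 0 dropped too, from 8177 to 6535 with the median and to 6747 with normexp and the 75th percentile. Leaving out WT unstimulated replicate 2 or WT LPS replicate 1 also brought the share of the risen genes to 47.9% or 49.9%. Leaving out KO unstimulated replicate 1 raised it to 71.3%.

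The lean towards KO was larger among the strongest responders. Of the 312 genes that rose by over 4 on the log2 scale, 252 (80.8%) had the larger response in KO, with a median difference of 0.57. The genotypes differed before LPS, with a median KO minus WT value of -0.58, and were nearly level after it, at 0.05. The 739 genes that rose by less than 1 had 56.8% larger in KO and a median of 0.04. The 124 strong responders that were well above background on all 8 arrays gave the same median, 0.57, with 102 of them (82.3%) larger in KO. Without the interferon-stimulated genes, 97 remained, 77 of them larger in KO (79.4%) with a median of 0.51. Among strong responders whose mean unstimulated level was over -2, 64 of 78 (82.1%) were larger in KO, with a median of 0.58. Over all genes tested the positive share was 50.8% at levels of -2 to 0, 57.9% at 0 to 2 and 66.0% over 2. Under normexp with the 75th percentile only 24.6% of the strong responders were larger in KO, and the median was -0.22.

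Signals near the background had the same sign. The 13933 probes that were dim on all 8 arrays had a median KO minus WT value of -0.84 without LPS and -0.18 with it, which gives a difference of 0.64 for probes with no signal well above background. Strong responders with an unstimulated level under -6 had the highest median of the levels compared, 0.80 over 110 genes. The part of this floor in the lean of the strong responders was not tested.

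Interferon-stimulated genes, whose products block viral replication and degrade viral RNA, made up 6 of the 99 genes with an unadjusted p under 0.05. Of 54 tested genes all 54 rose with LPS, with median log2 responses of 3.93 in WT and 4.25 in KO, and 52 were well above background on all 8 arrays. None of the 54 was called for a different response by limma. The difference was positive for 47 of them, with a median of 0.44, against 57.2% positive and a median of 0.05 over all genes. An unadjusted p under 0.05 was reached by 6 genes, Rtp4, Oas2, Oasl2, Ifit1, Oasl1 and Rsad2, all more positive in KO (0.587% of all genes). All 4 KO responses lay above all 4 WT responses for 12 genes and below them for 0, where 2.8% and 1.23% of all genes did so.

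By state, the larger genotype values stood on the unstimulated arrays. The mean signal over the 54 genes was 0.23 and 0.39 on the WT unstimulated arrays and -0.57 and -0.30 on the KO unstimulated arrays. After LPS it was 4.62 and 4.83 in WT and 4.64 and 4.44 in KO. The groups did not overlap before LPS, with KO lower, and they overlapped after it. By gene, 47 of the 54 were lower in KO without LPS, with a median of -0.55, and 45 were lower after LPS, with a median of -0.13. Over all 14299 genes 8277 were lower in KO without LPS and 7517 after it, with medians of -0.05 and -0.01. Of 36 oxidative phosphorylation genes 35 were also lower in KO without LPS, or 21 under quantile scaling. The lower level before LPS held for 46 to 48 of the 54 interferon-stimulated genes under the 5 combinations of background correction and scaling. The count lower after LPS ran from 35 to 52 of the 54 under the same combinations. The difference between responses was positive for 45 to 47 genes under 4 of these and for 11 under normexp with the 75th percentile, where its median was -0.38 and that of 15 reference genes was -0.86. Among the 42 interferon-stimulated genes with an unstimulated level over -2, 38 (90.5%) were larger in KO, with a median of 0.40. Slide cancels in the difference between the responses but not in these values within a state: slide 1 held both WT and 1 KO unstimulated array, and slide 2 both KO and 1 WT LPS array. In a comparison within slides, chosen after seeing the data, KO unstimulated replicate 2 was set against both WT unstimulated arrays of slide 1. It was below both for 36 of the 54 genes, with a median of -0.40 against the WT mean. The same array was below both for 29 of 36 oxidative phosphorylation genes and 7 of 15 reference genes, with medians of -0.35 and -0.093. A low reading there was thus shared with the oxidative phosphorylation genes, but not with every list. That array was below both for 0 of 37 cell cycle genes, 5 of 22 MHC class I genes and 7 of 43 published miR-155 targets. The share over all genes was not computed. Within slide 2 the KO LPS mean minus WT LPS replicate 1 had a median of 0.021 over the 54 genes. KO against WT gave 0 calls among all genes without LPS (0%), with 239 genes at an unadjusted p under 0.05 by limma.

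**Figure D2:**
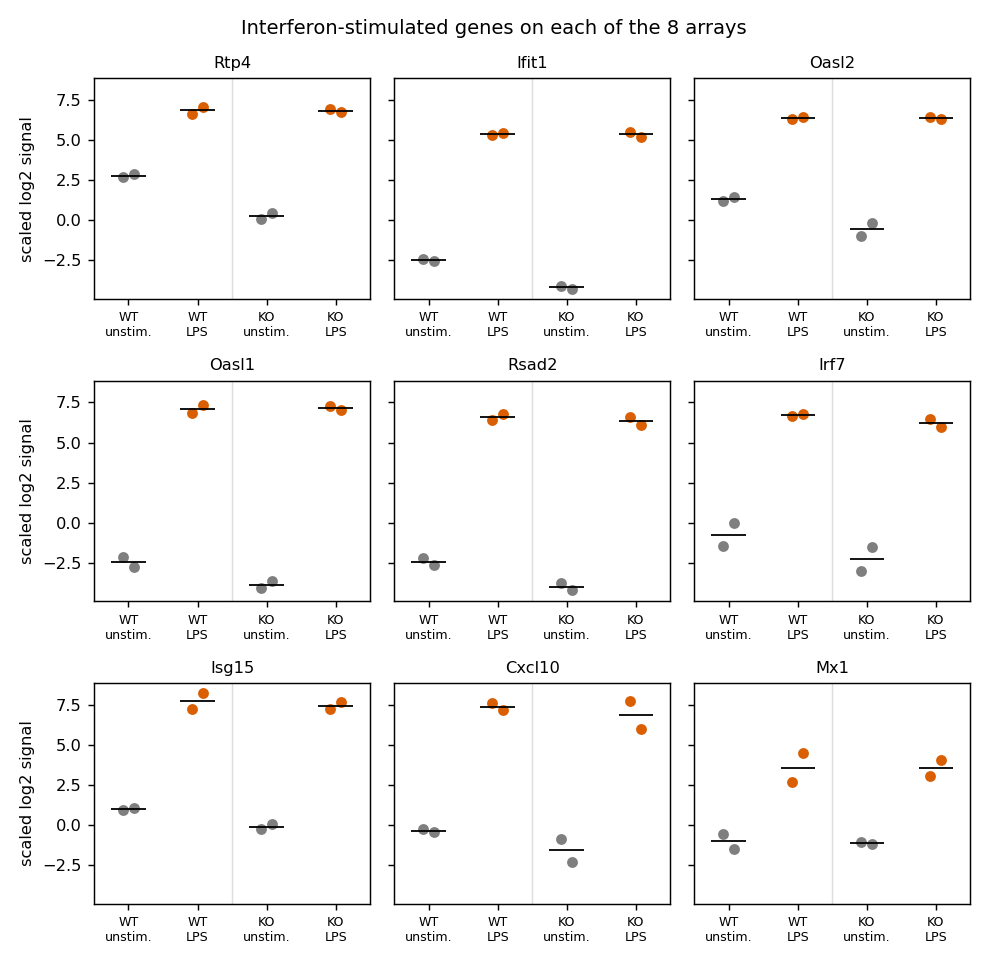
The scaled log2 signal (y axis) of interferon-stimulated genes is plotted for each of the 8 arrays by group (x axis), with grey (unstimulated) and orange (LPS) points for single arrays and a bar at the group mean. KO unstimulated arrays of Rtp4 (0.06 and 0.45) sit below those of WT (2.69 and 2.88) while its LPS arrays overlap, and Mx1 overlaps between genotypes in the unstimulated state too.

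Rtp4, which encodes a transporter protein that binds viral RNA, had the largest difference of the list. Its scaled log2 signal was 2.69 and 2.88 in WT and 0.06 and 0.45 in KO without LPS, and 6.65 and 7.04 in WT and 6.92 and 6.75 in KO after it. The groups were apart before LPS and overlapped after it. The response was 4.06 in WT and 6.57 in KO, a difference of 2.51 ± 0.39 (SE from limma with n = 2 arrays in each group, adjusted p = 0.928). Its value lay between 1.64 and 2.55 under the other combinations of background correction and scaling.

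Ifit1, which binds foreign RNA caps, had signals of -2.42 and -2.55 in WT and -4.10 and -4.28 in KO without LPS. After LPS they were 5.32 and 5.47 in WT and 5.51 and 5.22 in KO. Only the unstimulated arrays were apart by genotype, and the difference between the responses was 1.68 ± 0.35. Oasl2, of the oligoadenylate synthetase family of antiviral sensors, had 1.18 and 1.42 in WT against -0.99 and -0.17 in KO without LPS, and 6.28 and 6.45 against 6.42 and 6.30 after it. Its difference was 1.87 ± 0.46. Its relative Oasl1 had -2.14 and -2.75 against -4.09 and -3.66 without LPS, and 6.81 and 7.36 against 7.26 and 7.03 with it. This was the most strongly risen gene of the bright genes, by 10.28 on the average of the genotypes, with a difference of 1.49 ± 0.48. Rsad2, the antiviral enzyme viperin, differed by 1.29 ± 0.46 on its brightest probe. The 3 probes of Rsad2 ranged from 0.06 to 1.29, and the value was -0.05 with normexp and the 75th percentile. Over the other combinations of background correction and scaling the lowest values were 0.30 for Ifit1, 0.88 for Oasl2 and 0.20 for Oasl1. Oas2, a further oligoadenylate synthetase, had -1.08 and -0.23 against -3.96 and -2.08 without LPS and differed by 2.23 ± 0.87. The adjusted p of each of the others was larger than that of Rtp4.

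Other members of the family had smaller values. Isg15, a ubiquitin-like modifier, had 0.96 and 1.08 in WT and -0.23 and 0.05 in KO without LPS, and differed by 0.82 ± 0.52. Irf7, the transcription factor that amplifies interferon production, had -1.45 and -0.04 in WT against -3.02 and -1.51 in KO without LPS, which lie just apart, and differed by 1.05 ± 0.86. The values of both genes turned negative with normexp and the 75th percentile. The antiviral GTPase Mx1 differed by 0.08 ± 0.90. At the other end Tlr3, the receptor for double-stranded RNA, had the most negative value of the list, -0.77 ± 0.49. Xaf1, named here after its values were seen, was lower in KO in both states, with 0.84 and 0.92 against -2.62 and -2.44 without LPS and 4.95 and 5.38 against 2.48 and 2.21 after it. Its responses differed by 0.59 ± 0.38, with a 95% interval of -0.30 to 1.48, while the KO minus WT value was -3.41 without LPS and -2.82 after it.

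Upstream regions of several of these genes are shown because the genes moved together with LPS. Each is the 250 bases before the RefSeq start on GRCm38.p6, written in the direction of transcription, and capitals mark the letters GAAA, any 2 bases and GAAA again, searched on both strands, a repeat found in the binding element of interferon-regulated transcription factors. A match on the opposite strand reads TTTC, any 2 bases and TTTC, and matches may overlap. Ifit1 (chr19:34640639-34640888, plus strand) held 2 matches, Rsad2 (chr12:26456453-26456702, minus strand) held 1, Isg15 (chr4:156200819-156201068, minus strand) held 3 that overlap, and Oasl2 (chr5:114896684-114896933, plus strand) held 0.
Ifit1: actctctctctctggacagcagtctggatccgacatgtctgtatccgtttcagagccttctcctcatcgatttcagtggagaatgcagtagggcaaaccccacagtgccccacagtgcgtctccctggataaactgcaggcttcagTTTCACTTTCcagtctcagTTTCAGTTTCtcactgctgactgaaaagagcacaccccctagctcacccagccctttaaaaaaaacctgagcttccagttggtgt
Rsad2: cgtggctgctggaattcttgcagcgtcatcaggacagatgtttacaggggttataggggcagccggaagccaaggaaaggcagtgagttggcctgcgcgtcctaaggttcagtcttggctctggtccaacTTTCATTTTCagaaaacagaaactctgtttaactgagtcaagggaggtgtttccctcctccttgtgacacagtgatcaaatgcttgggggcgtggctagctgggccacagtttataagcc
Isg15: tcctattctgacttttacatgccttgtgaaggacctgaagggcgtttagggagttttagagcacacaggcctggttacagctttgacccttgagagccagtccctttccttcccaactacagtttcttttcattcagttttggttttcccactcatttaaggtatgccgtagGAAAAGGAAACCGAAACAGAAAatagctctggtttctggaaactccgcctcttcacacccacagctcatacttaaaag
Oasl2: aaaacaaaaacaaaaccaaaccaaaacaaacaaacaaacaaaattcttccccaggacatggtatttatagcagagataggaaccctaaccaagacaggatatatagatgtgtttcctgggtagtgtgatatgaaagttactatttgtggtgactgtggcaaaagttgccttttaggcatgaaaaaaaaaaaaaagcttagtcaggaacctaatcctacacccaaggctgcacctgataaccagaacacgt
The letters occurred in 3.46% of the 27025 genes in the promoter table, in 5.72% of 1574 risen genes and in 18 of the 41 interferon-stimulated genes found there (43.9%). The median difference between the responses was 0.56 for the 18 genes with a match and 0.32 for the 23 without. Genes with the letters and without them thus both leaned towards KO.

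Markers of monocytes had the same sign as this group. Of 9 monocyte markers, 7 had a more positive response in KO, with a median of 0.68, and their median KO minus WT value without LPS was -0.70. Ly6c2 was 3.80 and 4.89 in WT and 2.10 and 3.19 in KO without LPS, with a difference of 1.08 ± 0.90. The mean level of the 9 markers was 2.17 and 3.66 in WT and 1.99 and 2.80 in KO without LPS, and 1.83 to 2.55 over the 4 LPS arrays, so the genotypes overlapped in both states. The median over the monocyte markers rests on single arrays: it was -0.01 without WT unstimulated replicate 2 and 1.38 without WT unstimulated replicate 1, and 0.092 and 0.041 with normexp under the 75th percentile and quantile scaling. Of 13 macrophage markers 11 were positive, with a median of 0.39, which was -0.24 without KO LPS replicate 1 and 1.21 without KO LPS replicate 2, and 7 of 13 were positive under normexp with the 75th percentile. The 5 measured erythroid markers were all positive, with a median of 0.72 that ranged from 0.38 to 1.39 without single arrays, and the erythroid genes Klf1 and Alas2 did not pass the filter on signal. The plasmacytoid DC marker Siglech, the neutrophil granule genes Elane and Mpo, the B cell genes Cd79a and Ms4a1 and the T cell genes Cd3d and Cd3g did not pass it either. In sorted bulk samples fewer cells of a type and less RNA per cell cannot be told apart. The part of the monocyte, macrophage and erythroid markers in the interferon result was not tested.

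The signalling genes upstream of the interferon-stimulated genes had values on both sides of 0. Of 19 tested genes of the type I interferon pathway, 11 were positive and the median was 0.03 (-0.77 under normexp with the 75th percentile), with 0 at an unadjusted p under 0.05. Ifnb1, the interferon beta gene, was not well above background on any unstimulated array and rose at least 6.34-fold in WT and at least 21.5-fold in KO. Such bounds on a rise, here and below, cannot be compared between genotypes. They start from the lowest signal well above background, -4.68 and -4.45 in WT but -5.64 and -5.12 in KO without LPS. The LPS arrays of Ifnb1 read -2.38 and -1.42 in WT and -2.64 and 0.72 in KO, which overlap, and its fitted difference was 1.63 ± 1.36. Ticam2, an adaptor of TLR4, had the most negative value of the list, -2.15 ± 1.73, with 1 WT unstimulated array at -6.48 and the other at -2.14.

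No cytokine gene passed the test for a different response. Of 22 tested cytokine genes 19 rose with LPS, 15 had a more positive response in KO and 0 were called, with a median difference of 0.34 that turned to -0.31 with normexp and the 75th percentile. Without KO LPS replicate 2 that median was 0.052. Only 13 of the 22 were well above background on all 8 arrays, and of these, a subset taken after seeing the data, 8 were positive, with a median of 0.20. Il6, the pro-inflammatory cytokine, read -4.36 and -4.34 in WT and -4.79 and -4.68 in KO without LPS, and 8.54 and 8.22 against 8.50 and 8.37 with it. Its response was 12.73 in WT and 13.17 in KO, a difference of 0.45 ± 0.34. Under 1 of the other scalings this value was -0.22. Il6 was not well above background on all 8 arrays. Without LPS its readings lay near the lowest signals well above background, -4.68 and -4.45 in WT and -5.64 and -5.12 in KO. The LPS arrays overlapped between genotypes, so the fitted difference of 0.45 lay on the unstimulated arrays. The 95% interval of that difference, -0.36 to 1.26, allows a response of over 2-fold larger in KO. Il12a, the IL-12 subunit, rose at least 389-fold in WT and at least 634-fold in KO, with LPS arrays at 4.04 and 4.05 against 4.38 and 3.47. The KO bound is the larger because the lowest signals well above background were lower in KO, so the bounds do not compare the genotypes. Its fitted difference of 0.88 ± 0.48 draws on unstimulated arrays that were not well above background, at -6.64 and -6.38 in WT and -7.62 and -7.39 in KO, and the KO minus WT value after LPS was -0.12. Tnf differed by 0.27 ± 0.54, Il1b by 0.60 ± 1.04 and Il27 by -0.27 ± 0.44.

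Il23a, the IL-23 subunit, was the 1 cytokine at an unadjusted p under 0.05. It was not well above background on any unstimulated array, and rose at least 1.89-fold in WT and at least 4.99-fold in KO. LPS arrays read -3.31 and -3.98 in WT and -3.44 and -2.69 in KO, so the genotypes overlapped after LPS. The fitted difference of 2.19 ± 0.87 includes -1.61 between unstimulated arrays that lie at the background, and it was 0.36 under 1 of the other scalings. Il10, the anti-inflammatory cytokine, rose at least 3.86-fold in WT and at least 8.24-fold in KO, on LPS arrays that ranged from -4.60 to -0.63 in WT alone.

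Among 22 tested chemokines 18 rose, 12 had a more positive response in KO and the median difference was 0.07, which lay between -0.25 and 0.13 under the other scalings and between -0.31 and 0.72 without single arrays. Cxcl5, which attracts neutrophils, was the 1 chemokine at an unadjusted p under 0.05. It was dim without LPS in both genotypes, and with LPS read 3.54 and 2.76 in WT and 4.45 and 4.21 in KO, which do not overlap. It rose at least 210-fold in WT and at least 839-fold in KO, with a fitted difference of 1.66 ± 0.46 and a KO minus WT value of 1.18 after LPS. Unlike the interferon-stimulated genes above, most of this difference lay on the LPS arrays. Ccl5, which attracts T cells and is also induced by interferon, read 1.57 and 2.99 in WT and 1.22 and -0.00 in KO without LPS, and 9.25 and 9.34 against 9.47 and 9.17 with it. The responses differed by 1.69 ± 0.79, again from the unstimulated arrays. The interferon-induced Cxcl10 differed by 0.69 ± 0.92, and Ccl22, a chemokine of mature DC, by 0.12 ± 0.43.

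**Figure D3:**
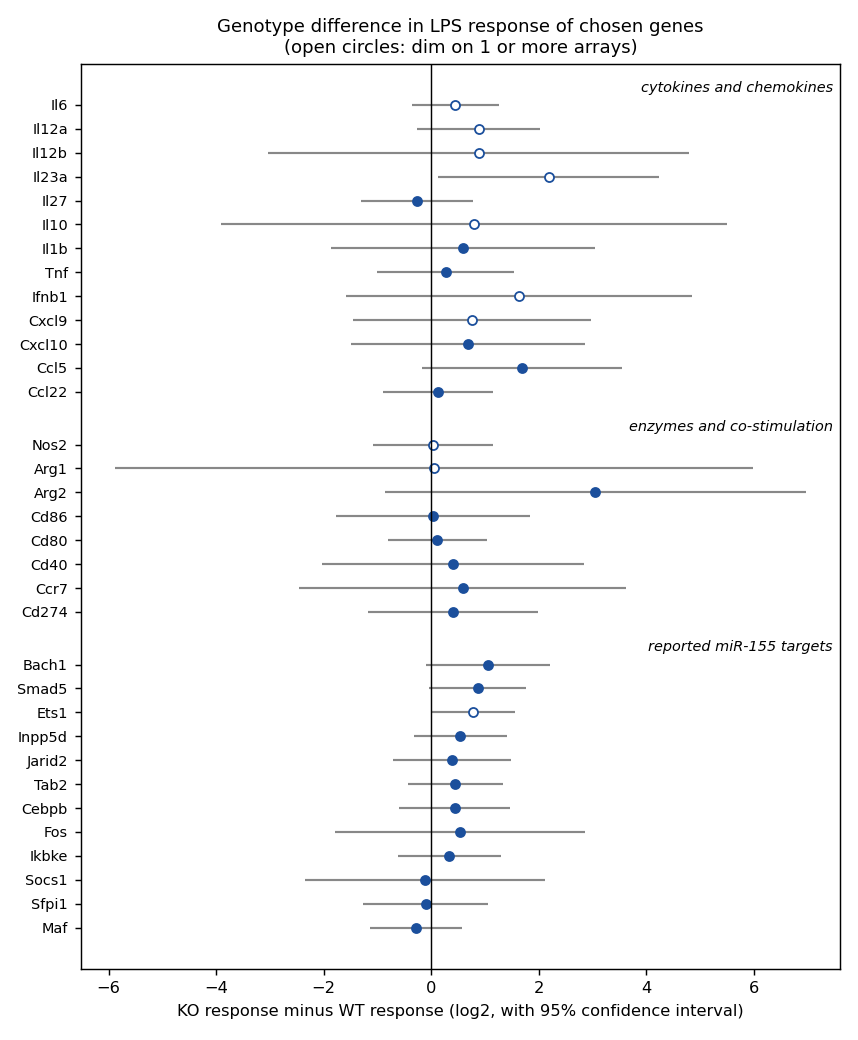
The LPS response of KO minus that of WT (x axis, log2, with 95% intervals from limma) is given for named genes in 3 groups (y axis), with open circles for genes that were dim on 1 or more arrays. Intervals of nearly all of them span 0, as for Il6 (-0.36 to 1.26), and those of Il23a (0.13 to 4.24) and Ets1 (0.01 to 1.55) do not.

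Mrpl39 had the smallest p-value of all genes and, among genes bright on all 8 arrays, the largest difference in size. It encodes a protein of the mitochondrial ribosome and lies close to Mir155 on chromosome 16. Its scaled log2 signal was 2.45 and 2.03 in WT and 2.39 and 2.01 in KO without LPS, and 1.89 and 2.49 in WT against -2.58 and -2.43 in KO after LPS. Only the KO LPS arrays were low, and they were still well above background. The response was -0.05 ± 0.32 in WT and -4.71 in KO, a difference of -4.66 ± 0.45 (95% interval -5.72 to -3.60, unadjusted p = 1.64e-05, adjusted p = 0.235 by limma). After LPS the KO minus WT value was -4.70 ± 0.32 (adjusted p = 0.0217 by limma), the 1 call of that comparison among all genes (0.00699%), where 109 genes had an unadjusted p under 0.05. The difference held its sign in every combination of background correction and scaling, from -4.77 to -3.22, and without any single array, from -4.96 to -4.36. A wider choice of genes, with probes bright in a single group of either genotype, brought its adjusted p to 0.0441.

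The value rests on 1 probe, whose 60 bases are printed to show what was measured.
Mrpl39 probe: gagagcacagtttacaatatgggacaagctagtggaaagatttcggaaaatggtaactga
The file places this probe on the minus strand of chromosome 16 (mm9, chr16:84718622-84724086), an interval longer than the probe. The GRCm38.p6 coordinates of the microRNA given above are of another build and cannot be set against it.

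**Figure D4:**
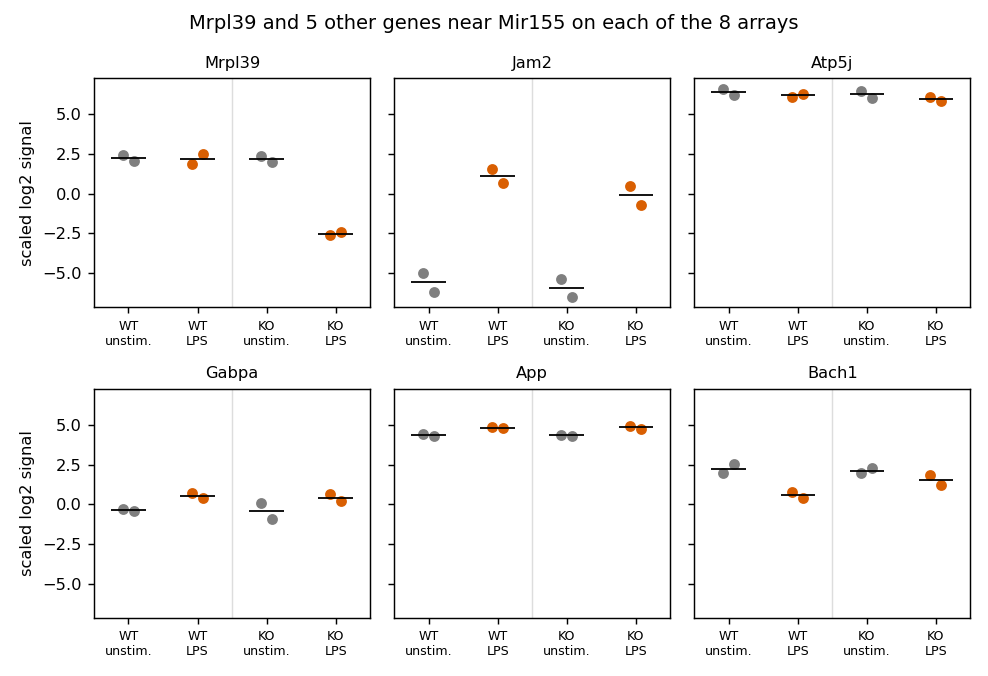
The scaled log2 signal of Mrpl39 and of other genes near Mir155 (y axis) is plotted for each of the 8 arrays by group (x axis), with grey (unstimulated) and orange (LPS) points and a bar at the group mean. Both KO LPS arrays of Mrpl39 lie at -2.58 and -2.43, and the other 6 arrays between 1.89 and 2.49.

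Most other genes of the neighbourhood had values near 0. Of 27 listed genes 18 were tested, with a median difference of -0.04 and 8 of them positive. Atp5j, a subunit of the mitochondrial ATP synthase, differed by -0.07 ± 0.40, the transcription factor gene Gabpa by -0.06 ± 0.53 and App, the amyloid precursor, by 0.02 ± 0.32, and these genes were named for their position. Jam2, a cell adhesion protein, read 1.54 and 0.65 in WT and 0.49 and -0.70 in KO after LPS, and differed by -0.85 ± 0.89. Bach1, a transcriptional repressor that stands both in this list and among the published miR-155 targets, had the most positive value, 1.05 ± 0.49.

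In the difference between responses, published targets of miR-155 had a positive value about as often as other genes. Of 43 tested targets 24 were positive, or 55.8%, where 57.2% of all genes were, and the median was 0.16 against 0.05 over all genes, with 0 calls by limma and 1 gene at an unadjusted p under 0.05. All 4 KO responses lay above those of WT for 6 of the 43 targets (2.8% of all genes) and below them for 0. The median KO minus WT value of the targets was -0.03 without LPS and 0.14 after it. By state, 22 of the 43 targets read lower in KO without LPS and 11 after it, where 8277 and 7517 of all 14299 genes did. The count lower after LPS was 11 with quantile scaling, 19 with the median and 10 with normexp and quantile scaling. It was 28 with normexp and the 75th percentile, so most targets read higher in KO after LPS except under that setting. Across the other combinations of background correction and scaling the median difference was 0.13, 0.08, 0.0058 and -0.34.

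Bach1, which fell on the average of the genotypes, read 1.94 and 2.52 in WT and 1.99 and 2.26 in KO without LPS, and 0.80 and 0.38 against 1.84 and 1.22 after it, where the genotypes do not overlap. Smad5, a signal transducer of bone morphogenetic proteins, read 0.81 to 1.24 on the 4 unstimulated arrays, with the genotypes overlapping, and 0.19 and 0.53 in WT against 1.13 and 1.25 in KO after LPS. The LPS arrays again do not overlap, and the difference was 0.86 ± 0.38. Inpp5d, which encodes the phosphatase SHIP1, a brake on signalling through phosphoinositides, read 2.97 and 3.14 in WT and 3.46 and 3.67 in KO after LPS, and 4.21 to 4.58 on the 4 unstimulated arrays. Its responses of -1.34 and -0.80 differed by 0.54 ± 0.37. For these 3 genes the difference lay on the LPS arrays, with KO above WT by 0.94, 0.83 and 0.51.

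Ets1, a lymphoid transcription factor, was the 1 target at an unadjusted p under 0.05, with a difference of 0.78 ± 0.33 on its brightest probe and -0.01 on another. Arg2, the mitochondrial arginase, had the largest value, 3.05 ± 1.66, with -1.89 and 0.95 in WT and -3.46 and -0.40 in KO without LPS and 1.89 and 1.41 against 3.71 and 2.79 after it. Replicates of Arg2 without LPS lay about 3 log2 units apart in both genotypes. Tab2, a signalling adaptor of TLR4, differed by 0.45 ± 0.37, the transcription factor Cebpb by 0.44 ± 0.44, Jarid2, a chromatin regulator, by 0.39 ± 0.46, and Ikbke, a kinase of the interferon pathway, by 0.34 ± 0.41. Socs1, an inhibitor of cytokine signalling, was at -0.12 ± 0.95, Sfpi1, which encodes the transcription factor PU.1, at -0.10 ± 0.49 and Maf at -0.29 ± 0.36. The 95% interval of each gene from Tab2 to Maf included 0. Another probe had the opposite sign for Cebpb, at -0.06, and for Maf, at 0.06.

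No gene of DC activation passed the test for a different response. Of 29 co-stimulatory and maturation genes 25 rose with LPS, 20 had a more positive response in KO and the median was 0.17. It turned to -0.51, with 5 positive, under normexp with the 75th percentile, where 15 reference genes had a median of -0.86 with 1 positive. Without KO LPS replicate 2 the median of the co-stimulatory and maturation genes was -0.0070. Cd86, the sort marker, differed by 0.03 ± 0.76, Cd80 by 0.11 ± 0.39, Cd40 by 0.40 ± 1.03, the lymph node homing receptor Ccr7 by 0.58 ± 1.29 and the checkpoint ligand Cd274 by 0.41 ± 0.67. Cells were sorted on CD86 in each state, so the gate may limit how far Cd86 and other maturation genes could differ, which was not tested. Another probe had the opposite sign for Cd86, at -0.16, and for Cd80, at -0.54. Of 29 genes of NF-kB feedback and signalling 27 rose and 25 had a more positive response in KO, with a median of 0.21. That median was 0.19, 0.14 and 0.22 under 3 other combinations of background correction and scaling and -0.49 under normexp with the 75th percentile, and 0.034 without WT LPS replicate 1. The largest values were those of Tnfaip2, 0.70 ± 0.55, and Nfkb2, the NF-kB subunit of the non-canonical pathway, 0.50 ± 0.47. Among 22 genes of MHC class I presentation 20 rose, 15 were positive and the median was 0.17, which was 0.052 with quantile scaling, -0.70, with 1 positive, under normexp with the 75th percentile, and -0.085 without KO unstimulated replicate 1. The 17 MHC class II genes had a median of 0.04, between -0.69 and -0.024 under the other scalings. Nos2, the inducible nitric oxide synthase, was dim without LPS and rose at least 25.9-fold in WT and at least 28.5-fold in KO, a fitted difference of 0.03 ± 0.47. Arg1, the cytosolic arginase that competes with it for arginine, could not be compared, with a difference of 0.05 ± 2.51.

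No metabolic or proliferation gene passed the test for a different response. Of 36 oxidative phosphorylation genes 17 fell, and 34 had a more positive value in KO, with a median of 0.14 and 0 at an unadjusted p under 0.05. That count was 24 with quantile scaling, 25 with normexp and quantile scaling, and 0 with normexp and the 75th percentile. Of 37 cell cycle genes 33 fell, with a median difference of -0.07 and 14 positive. The mitotic motor gene Kif11 was dim after LPS and fell at least 8.01-fold in WT and at least 11.7-fold in KO, while the proliferation marker Mki67 differed by 1.24 ± 0.67. Of 23 sterol biosynthesis genes 19 fell, with a median difference of -0.05. Under normexp with the 75th percentile the cell cycle median was 0.31 and that of the sterol genes -0.73. Medians were -0.06 for 21 genes of the unfolded protein response, 0.02 for 21 glycolysis genes and 0.01 for 15 reference genes. Without single arrays the medians of the cell cycle, sterol, unfolded protein response and glycolysis lists took both signs.

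**Figure D5:**
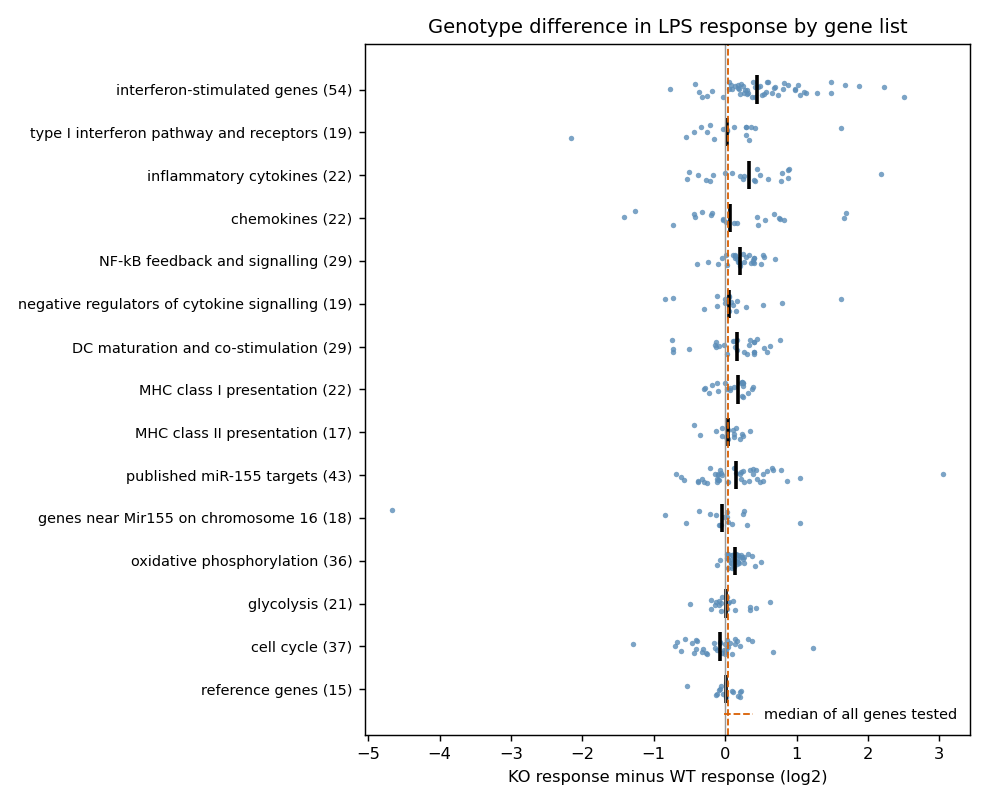
For each gene list (y axis) points give the LPS response of KO minus that of WT for single genes (x axis, log2), black bars the median of the list and the dashed line the median of all genes, 0.05. The interferon-stimulated genes reach from -0.77 to 2.51 around a median of 0.44, and the reference genes lie around 0.01; with normexp and the 75th percentile the first median was -0.38 and the second -0.86.

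Outside the lists, the bright genes with the smallest p-values were all uncalled. Slc6a9, a glycine transporter, read -1.57 and -1.44 in WT and -1.36 and -1.76 in KO without LPS, and -0.91 and -0.69 against 0.41 and 0.58 after it. The gap lay on the LPS arrays alone, and the difference was 1.35 ± 0.37, between 1.15 and 1.40 under the other scalings. Ptgr1, an enzyme that inactivates prostaglandins and leukotriene B4, read 2.78 and 2.96 in WT and 3.83 and 3.64 in KO after LPS, with 2.96 to 3.59 on the unstimulated arrays, and differed by 1.21 ± 0.37. Its response was thus below 0 in WT, -0.49, and above 0 in KO, 0.72, and the averaged response was not called. Gm10033 (3.09 ± 0.72) and the netrin receptor gene Neo1 (2.29 ± 0.72) had positive values in which KO was lower without LPS, and Lrp5, a co-receptor of Wnt proteins, had 1.34 ± 0.43. In the negative direction the genes with the smallest p after Mrpl39 were AK078010 (-0.97 ± 0.35), the cell adhesion gene Nlgn2 (-1.41 ± 0.58), TC1605825 (-1.51 ± 0.63), the potassium channel gene Kcna3 (-1.02 ± 0.44) and Acot2, an enzyme that cleaves fatty acyl-CoA (-1.04 ± 0.48). Under 1 of the other scalings AK078010, TC1605825, Kcna3 and Acot2 turned positive, at 1.17, 0.41, 0.85 and 0.57. Nlgn2 stayed negative but came to -0.15. The positive values of Ptgr1 and Lrp5 kept their sign and went as low as 0.39 and 0.54.

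The genes bright on all 8 arrays that responded most strongly did so in both genotypes. Besides Oasl1, Rsad2 and Ifit1 the largest averaged rises were those of Ms4a4c, 9.42, and the neutrophil chemokine Cxcl3, 8.92, with differences of 0.64 ± 1.28 and 0.17 ± 2.26. The largest falls were those of Asgr2, a subunit of the asialoglycoprotein receptor, -7.32, the lectin Clec10a, -6.49, the leukotriene enzyme Alox5, -6.37, the cell cycle factor E2f2, -6.34, and the chemokine receptor Ccr2, -6.25. Their differences were 0.25 ± 0.64, 0.50 ± 1.28, -0.08 ± 0.49, -0.61 ± 0.67 and -0.59 ± 0.68. Alox5 overlapped between the genotypes in both states, with 3.54 and 3.38 in WT and 3.25 and 3.54 in KO without LPS, and -2.46 and -3.29 against -2.82 and -3.21 after it.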

How the data were processed

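Cy3-labelled RNA of sorted cells was read on 8 Agilent arrays of 1 colour, whose probes are 60 bases long. The authors used Agilent Feature Extraction (version 10.5.1.1) to read the scans, with probes placed on build mm9, per the file headers. The deposited scanner values are intensity values, background-subtracted and spatially detrended but not scaled between arrays, and the deposited spot flags, an other unit, mark spots as outlying or as well above background. In the authors' value table of the series, the deposited log2 values matched this signal minus a constant per array (75th percentile 9.19) and served as a check.

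Here 120 to 174 outlying spots per array were left out, spots of a probe averaged, and the 75th percentile of each array subtracted from its log2 signal. The brightest probe stood for a gene. A group-means model was fitted with the limma package, version 3.58.1 (R 4.3.3, with the data.table package, version 1.17.8, for reading), with 4 residual and 2.99 prior degrees of freedom, two-sided p-values and Benjamini-Hochberg adjustment over all genes, called under 0.05. The scripts were tested on simulated data. Bounds ("at least N-fold") set a dim group at the lowest signal well above background on each array. On unstimulated arrays that signal was lower in KO than in WT, so bounds on a rise are larger in KO by construction. Of 11448 tested genes with a RefSeq accession, 11310 matched.

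Members and gene lists were chosen with earlier results of these data known. Named genes were up to 15 per direction by call and then by p, fixed cytokine, interferon and target genes, the members of each list with the smallest p, and the 5 largest averaged responses per direction. Of 125 such genes 32 had several probes, and 6 of these had probes of opposite sign. Alternatives covered scaling, background correction, the filter, probe choice, slide, replicate block and leaving out each array. Arrays lay on 2 slides of 4. Some named items are not reported here.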

Additional observations from a re-analysis of the deposited data

How the results depend on the processing

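The count of genes called for a different LPS response was 0 under every alternative except the looser filter, which gave 7 calls. These were Mrpl39 and 6 genes outside the rule (Spag17, Hmx2, NAP100574-001, AK082037, AK034179 and AK089089). Normexp with the 75th percentile gave 47.5% of risen genes larger in KO with a median of -0.059, 60.9% of fallen genes with -0.25, 24.6% of strong risers with -0.22, an interferon-stimulated median of -0.38, non-overlapping responses for 2015 genes above and 439 below, and 2290 LPS-called genes. With that setting the 15 reference genes had a median of -0.86, with 1 positive, and the 37 cell cycle genes one of 0.31. The setting thus moved lists without an interferon or cytokine role too, and not all in the same direction. Quantile scaling gave 57.2% of fallen genes and 67.5% of strong risers larger in KO and 269 genes below. Scaling to the median gave 54.4% of risen and 56.7% of fallen genes. Genes whose KO responses lay below those of WT numbered 113 with a filter on all 8 arrays, 416 without a filter (4861 above) and 292 with normexp and quantile scaling. Without a filter the median of all genes was 0.21, against 0.05.

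Leaving out 1 array at a time, the call count stayed at 0 and the LPS-called genes numbered 4147 to 4944. Non-overlapping responses numbered 1007 to 2176 above and 685 to 1306 below, since fewer differences had to be apart. Risen genes larger in KO ranged from 47.9% to 71.3% (medians -0.023 to 0.27), fallen genes from 41.9% to 67.3% (-0.20 to 0.11), strong risers from 61.5% to 82.0% (0.28 to 0.74), and the interferon-stimulated median from 0.30 to 0.64. Same-numbered replicates deviated together to unequal degrees (r from 0.02 to 0.73 over pairs of groups), so pairing was not taken as shown. A replicate block left 0 calls and 181 genes at an unadjusted p under 0.05, a slide block 105, and both together 134, with 2747 LPS-called genes. A block by number within each state, chosen after seeing the data like normexp with quantile scaling, gave 0 calls and 436 genes. Of 125 named genes 42 kept their sign under every setting, and 2809 of 2973 gene values under the alternatives kept theirs. With 2 arrays per group, precision was the limit throughout.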
